A study of Mus musculus with 10 samples.

Results

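From the primitive endoderm programme, 10 genes were followed by name in the gene table of 10 mouse morula libraries: the transcription factors Gata6, Gata4 and Sox17, the receptor gene Pdgfra, and the basement membrane genes Col4a1, Col4a2, Sparc, Lama1, Lamb1 and Lamc1. Their positions are those of GENCODE M21 on GRCm38, the assembly that mm10 stands for. All 10 names were found among the 35976 genes of the table, and all 10 passed the filter on low counts both in single embryos and in pools. Polyadenylated RNA was sequenced from morulae of the cross BDF1 x PWK, a cross that every library shares. The single-embryo libraries came from female embryos, 3 of them Jarid2 knockout (replicates 1, 3 and 4) and 3 wild type (replicates 1 to 3), and the pooled libraries each held about 20 embryos, 2 of them knockout and 2 control. Jarid2 encodes an accessory subunit of the Polycomb complex that methylates histone H3 at lysine 27, and the study set knockout morulae against control morulae. The sources used here do not say which exons were removed, whether the egg still carried Jarid2 RNA, which sex the pooled embryos had, or whether the pools came from separate litters. The spread behind the p-values in pools is thus that of these particular pools and may be only technical.

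Primitive endoderm is the epithelium that comes to line the blastocyst cavity and later builds the endoderm of the yolk sac. Gata6 is already present in most blastomeres of the morula, Pdgfra marks precursors of the lineage, and Sox17 and Gata4 come up later as cells commit to it. Endoderm cells and their neighbours secrete a basement membrane, a sheet in which a network of type IV collagen and a network of laminin, a trimer of one alpha, one beta and one gamma chain, are joined by linker proteins.

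In single embryos 3 of the 10 members passed the test and all 3 fell in the knockout, Col4a1 to 0.322, Col4a2 to 0.244 and Sparc to 0.344 times its wild-type level, where 3.21% of all genes tested fell. None of the 3 transcription factors passed. In pools 0 of the 10 members passed, where 0% of all genes did. The knockout single embryos carried amounts of basement membrane RNA around those of both kinds of pool, and the wild-type single embryos carried more than any other library.

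Col4a1 and Col4a2 encode the chains of the commonest type IV collagen and stand head to head on chromosome 8, with Col4a1 on the minus strand (chr8:11198423-11312826) and Col4a2 on the plus strand (chr8:11312805-11449287). Their first exons overlap by 22 bases. The promoter windows of the pair are shown because both genes fell together in single embryos, and that of Lamb1, on the plus strand of chromosome 12, because its values followed the pair most closely. The sequences are RefSeq windows of GRCm38.p6, from 250 bases before to 50 bases after each start, written 5′ to 3′ in the direction of the gene: chr8:11312777-11313076 for Col4a1, chr8:11312555-11312854 for Col4a2 and chr12:31265043-31265342 for Lamb1. Capitals mark the 22 bases between the annotated starts in the collagen pair, which read as reverse complements of each other, and the matches to CCAAT and GGGCGG (on either strand) in Lamb1.
Col4a1: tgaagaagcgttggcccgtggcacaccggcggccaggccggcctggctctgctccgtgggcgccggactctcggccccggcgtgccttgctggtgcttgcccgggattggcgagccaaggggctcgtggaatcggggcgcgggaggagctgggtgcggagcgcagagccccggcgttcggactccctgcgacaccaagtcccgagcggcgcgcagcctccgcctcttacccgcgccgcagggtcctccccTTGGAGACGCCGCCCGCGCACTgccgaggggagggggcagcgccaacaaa
Col4a2: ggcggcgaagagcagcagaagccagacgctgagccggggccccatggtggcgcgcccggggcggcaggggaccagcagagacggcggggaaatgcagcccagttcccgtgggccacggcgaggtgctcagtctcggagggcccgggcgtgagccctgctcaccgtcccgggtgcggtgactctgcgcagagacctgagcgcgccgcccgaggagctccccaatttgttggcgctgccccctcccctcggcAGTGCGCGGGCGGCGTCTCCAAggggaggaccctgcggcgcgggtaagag
Lamb1: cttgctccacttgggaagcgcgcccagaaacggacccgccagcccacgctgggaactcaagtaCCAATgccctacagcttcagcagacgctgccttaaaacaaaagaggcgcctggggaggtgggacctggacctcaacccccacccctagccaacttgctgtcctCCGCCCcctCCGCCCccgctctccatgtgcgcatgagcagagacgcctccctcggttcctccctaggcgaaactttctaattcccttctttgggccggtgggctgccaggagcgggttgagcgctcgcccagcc
The windows of Col4a1 and Col4a2 share 78 bases. RefSeq windows were at hand for 5 of the 10 members, these 3, Pdgfra and Sparc. On both strands, CCAAT was found once each in the windows of Col4a1, Col4a2 and Lamb1, and in 37.4% of 32544 promoters of the same length. GGGCGG was found 1 time in Col4a1, 3 times in Col4a2 and 2 times in Lamb1, and in 35.9% of promoters. The match in Col4a1 and 1 of the 3 in Col4a2 are the same site, within the 22 shared bases. Neither of these was found in the windows of Pdgfra and Sparc. GATAA, a core of GATA factor sites, and ATTGT, a core of SOX factor sites, were found in none of the 5 windows, against 25.3% and 30.8% of all promoters, and TATAAA in none of the 5, against 13.6%. The matches are letters in these windows only and say nothing of which factor binds there.

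Levels are given as CPM, for which the counts of each library were scaled to the same total, and every value is one library. Total counts were 18015186, 18696312 and 18071881 in knockout single embryos 1, 3 and 4, against 14830332, 17534188 and 17389519 in wild-type single embryos 1 to 3. Knockout pools 1 and 2 held 49861963 and 41003216 counts, and control pools 1 and 2 held 42906533 and 47458704. A count of 0 allows a level of up to 0.161 to 0.202 CPM in a single embryo and 0.0602 to 0.0732 CPM in a pool, from 3 counts and for counting error only. The targeted gene had 156, 319 and 61.3 CPM of Jarid2 in knockout single embryos 1, 3 and 4, against 580, 686 and 776 CPM in wild-type single embryos 1 to 3 (log2 change -1.92, SE 0.43, adjusted p = 0.0342 by edgeR's quasi-likelihood test with Benjamini-Hochberg adjustment, used throughout). That adjusted p ran from 0.0735 to 0.127 without any 1 of knockout replicates 1 and 4 and wild-type replicates 1 and 3. Knockout pools held 181 and 158 CPM of Jarid2, against 443 and 496 CPM in control pools (log2 change -1.55, SE 0.18, adjusted p = 0.0794). In pools Jarid2 passed under 8 of 15 alternatives, among them DESeq2, limma-voom (adjusted p = 0.0303) and every fit with a pool left out, and the change stayed between -1.73 and -1.40 in all 15. The knockout libraries lay below their controls in both sets, and the direction is as labelled. Every one of 10 morula markers, among them Pou5f1, Nanog and Cdx2, had counts in each group. Of 9 primitive endoderm markers 8 had counts in each group, and Foxa2, which marks a later endoderm, was at 0 in all 10 libraries. Of 10 fibroblast markers the summed level was 1.17 to 3.38 CPM in knockout single embryos and 0.288 to 0.798 CPM in wild-type single embryos, and 0.782 to 1.93 CPM in knockout pools and 1.12 to 1.48 CPM in control pools, with Dcn and Lum at 0 in every library. Of 9 cumulus and granulosa cell markers the summed level was 31.9 to 41.7 CPM in knockout single embryos and 32.5 to 50.3 CPM in wild-type single embryos, and 21.7 to 22.6 CPM in knockout pools and 24.8 to 27.1 CPM in control pools. Nearly all of it was Amhr2, at 21.4 CPM or more in every library, with Foxl2 at up to 0.674 CPM, while Fshr, Has2, Ptx3, Inha and Inhba were at 0 in every library. Of 7 oocyte and polar body markers the summed level was 37.5 to 103 CPM in knockout single embryos and 48.1 to 163 CPM in wild-type ones. It was 63.2 to 75.7 CPM in pools, and Zp3 alone ran from 35.6 to 161 CPM. Of 8 endothelium and blood markers the sum was 31.6 to 50.7 CPM in knockout and 18.6 to 85.9 CPM in wild-type single embryos. In pools it was 30.0 to 42.6 CPM, and most of it was Cd68 and Pecam1. The part of these markers in the results was not tested.

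Gata6, on chromosome 18, a zinc-finger factor and the earliest of the 3, was the most abundant member per kilobase of transcript in all 10 libraries. Knockout single embryos 1, 3 and 4 held 272, 411 and 199 CPM of Gata6, against 412, 446 and 382 CPM in wild-type single embryos 1 to 3. Knockout replicate 3 lay among the wild-type embryos and the other knockout embryos lay below them, so the groups overlapped. The log2 change was -0.46 (SE 0.23, 95% interval -0.96 to 0.04, adjusted p = 0.258), which did not pass the test. Pools held 278 and 352 CPM of Gata6 in the knockout, against 224 and 292 CPM in the control, with overlap and a log2 change of 0.20 (SE 0.18, adjusted p = 0.898). Of the 6508 exon bases of Gata6, 93 overlap the opposite-strand transcript 1010001N08Rik. Since the sources used here do not give the handling of strand, reads within those bases cannot be told apart.

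Gata4 (chr14:63198922-63271692), a relative of Gata6 that appears later in the lineage, was close to the limit of detection in single embryos. It had 0, 14 and 1 counts in knockout replicates 1, 3 and 4, or 0, 0.749 and 0.0553 CPM, against 23, 34 and 16 counts in wild-type replicates 1 to 3, or 1.55, 1.94 and 0.920 CPM. Every knockout embryo lay below every wild-type embryo, but the test was not passed (log2 change -2.45, SE 1.44, adjusted p = 0.345). In pools the order of Gata4 was turned round, with 1.91 and 1.51 CPM in knockout pools and 0.466 and 0.632 CPM in control pools, a log2 change of 1.56 (SE 0.51, adjusted p = 0.630) without overlap.

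Sox17 (chr1:4490931-4497354), an HMG-box factor that drives endoderm genes, was detected in 1 of the 3 knockout single embryos. Knockout replicate 3 held 9.36 CPM of Sox17, the highest of any library, and knockout replicates 1 and 4 had 0 counts, against 5.39, 2.91 and 2.82 CPM in wild-type replicates 1 to 3. The groups overlapped through that one embryo (log2 change -0.31, SE 1.55, adjusted p = 0.933). Without knockout replicate 3 Sox17 passed as lower in the knockout (adjusted p = 0.0217), a call against knockout embryos that all had 0 counts. Knockout pools held 0.160 and 0.683 CPM of Sox17, against 0.326 and 2.13 CPM in control pools (log2 change -1.66, SE 0.90, adjusted p = 0.810), again with overlap. The antisense transcript Gm37587 shares 804 of the 4772 exon bases of Sox17, so reads within those bases are uncertain.

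Pdgfra (chr5:75152292-75198215), which encodes the receptor through which PDGF-A acts on primitive endoderm cells, varied widely between embryos of the same genotype. Its level was 8.66, 55.3 and 11.3 CPM in knockout single embryos 1, 3 and 4, against 141, 12.1 and 96.8 CPM in wild-type single embryos 1 to 3. Wild-type replicate 2 lay with the low knockout embryos and knockout replicate 3 between the wild-type ones, so the groups overlapped. The log2 change of Pdgfra was -1.76 (SE 0.80, adjusted p = 0.220). Both kinds of pool held low and close values, 13.7 and 12.9 CPM in knockout pools and 12.9 and 14.7 CPM in control pools (log2 change -0.14, SE 0.21, adjusted p = 0.948). Of the 10024 exon bases of Pdgfra, 456 are shared with the antisense Gm42802, and reads within those bases cannot be told apart.

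**Figure D1:**
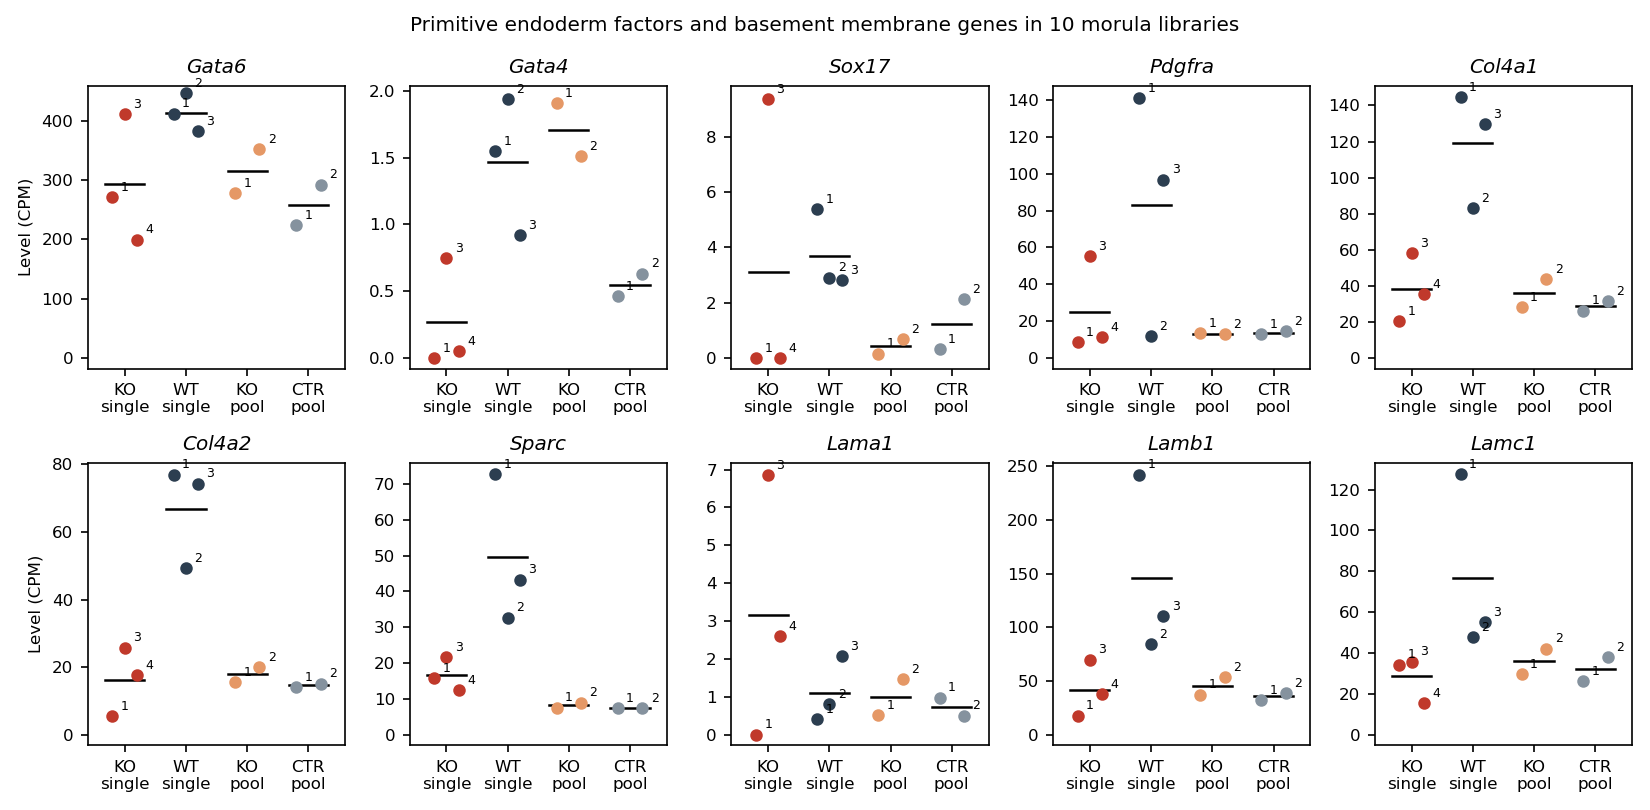
Level (CPM, one panel per gene, each with its own linear axis) of the 10 genes in every library: knockout and wild-type single embryos, then knockout and control pools, one point per library. The 3 knockout embryos lie below the 3 wild-type embryos for Gata4, Col4a1, Col4a2, Sparc, Lamb1 and Lamc1, while the pools of both genotypes lie close together for the basement membrane genes.

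The collagen genes fell together in single embryos. Col4a1 stood at 20.6, 58.0 and 35.6 CPM in knockout replicates 1, 3 and 4, against 145, 83.3 and 130 CPM in wild-type replicates 1 to 3. Its mean was 38.1 ± 18.8 CPM in knockout embryos and 119 ± 32 CPM in wild-type embryos (SD, n = 3 each), without overlap, and it fell by 1.63 on the log2 scale (SE 0.35, adjusted p = 0.0292). Col4a2 had 5.44, 25.7 and 17.7 CPM in knockout replicates 1, 3 and 4, against 77.0, 49.3 and 74.4 CPM in wild-type replicates 1 to 3. Col4a2 also separated the groups and fell by 2.03 (SE 0.45, adjusted p = 0.0343). Both calls needed 4 of the 6 libraries: the adjusted p of Col4a1 was 0.0941 without knockout replicate 1, 0.114 without knockout replicate 4, 0.122 without wild-type replicate 1 and 0.105 without wild-type replicate 3, and that of Col4a2 was 0.0649, 0.114, 0.128 and 0.112 without the same libraries. In bulk samples fewer cells that express a gene and less RNA per cell cannot be told apart. Of all 13830 genes tested 1.16% rose in knockout single embryos, and of the 10 members none rose.

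In pools the same pair showed no such difference. Col4a1 held 28.4 and 43.7 CPM in knockout pools, against 26.3 and 31.4 CPM in control pools (log2 change 0.22, 95% interval -0.25 to 0.69, adjusted p = 0.900). Col4a2 held 15.6 and 20.0 CPM in knockout pools, against 14.1 and 15.1 CPM in control pools, a small upward separation (log2 change 0.19, 95% interval -0.27 to 0.65, adjusted p = 0.913). Both intervals lie above the log2 changes in single embryos, -1.63 for Col4a1 and -2.03 for Col4a2. They rest on the spread of these particular pools, which may be only technical. The difference between single embryos and pools did not pass for either gene (adjusted p = 0.235 for each by edgeR's quasi-likelihood test). Between the 22 shared exon bases, on opposite strands, some reads of one gene could have been counted for the other.

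The ratio of Col4a1 to Col4a2, each per kilobase, was 3.69, 2.20 and 1.97 in knockout single embryos 1, 3 and 4, against 1.83, 1.65 and 1.70 in wild-type single embryos 1 to 3. All 3 knockout embryos lay above the wild-type ones, and the highest ratio rested on 98 counts of Col4a2 in knockout replicate 1. A two-sided exact permutation test gave p = 0.1, the smallest that 3 against 3 allows. The ratio was 1.77 and 2.13 in knockout pools and 1.81 and 2.03 in control pools, with overlap (exact permutation p = 1, smallest possible 0.333).

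Sparc (chr11:55394500-55423183) encodes a secreted glycoprotein that binds collagen and is abundant in parietal endoderm, where the thick Reichert's membrane is made. Knockout single embryos 1, 3 and 4 had 15.9, 21.6 and 12.5 CPM of Sparc, against 72.8, 32.7 and 43.3 CPM in wild-type single embryos 1 to 3. The groups did not overlap, and Sparc fell by 1.54 on the log2 scale (SE 0.36, adjusted p = 0.0372). Without those same 4 libraries, one at a time, its adjusted p was 0.121, 0.151, 0.173 and 0.105. Pools carried less Sparc than any single embryo, 7.54 and 8.93 CPM in knockout pools and 7.34 and 7.44 CPM in control pools (log2 change 0.06, 95% interval -0.47 to 0.60, adjusted p = 0.983).

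Lamb1 (chr12:31265234-31329644) and Lamc1 (chr1:153218922-153332786), the beta and gamma chains of the first laminin trimers of the embryo, lay lower in every knockout single embryo but did not pass the test. Lamb1 had 17.6, 70.0 and 38.0 CPM in knockout replicates 1, 3 and 4, against 242, 84.1 and 110 CPM in wild-type replicates 1 to 3 (log2 change -1.79, SE 0.47, adjusted p = 0.0580). Lamc1 had 34.3, 35.7 and 15.5 CPM in knockout replicates, against 128, 47.7 and 55.2 CPM in wild-type replicates (log2 change -1.39, SE 0.42, adjusted p = 0.0842). Wild-type replicate 1 was the highest embryo for both chains, and for both the gap between the groups was small at its narrowest. In pools Lamb1 held 37.3 and 53.7 CPM in the knockout and 32.5 and 38.6 CPM in the control, and Lamc1 29.7 and 42.1 CPM in the knockout and 26.2 and 37.9 CPM in the control. Both overlapped, with log2 changes of 0.26 (SE 0.20, adjusted p = 0.864) for Lamb1 and 0.07 (SE 0.22, adjusted p = 0.980) for Lamc1.

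Lama1 (chr17:67697259-67822647), the alpha chain of the classical endodermal laminin, was nearly absent and did not follow the others. Its level was 0, 6.85 and 2.60 CPM in knockout single embryos 1, 3 and 4, against 0.405, 0.798 and 2.07 CPM in wild-type single embryos 1 to 3, with overlap (log2 change 1.48, SE 1.37, adjusted p = 0.577). Pools held 0.521 and 1.46 CPM in the knockout, against 0.979 and 0.506 CPM in the control (log2 change 0.29, SE 0.66, adjusted p = 0.966). Per kilobase of transcript, Lama1 came to between 0% and 5.94% of Lamb1 over the 10 libraries. The alpha chain gene Lama5 was the most abundant of the alpha chains per kilobase, at 5.65 ± 2.95 CPM per kb in knockout single embryos and 11.5 ± 2.92 CPM per kb in wild-type single embryos (SD, n = 3 each). Where Lama1 had counts, Lama5 stood 12.6 to 341 times above it per kilobase within the same library.

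**Figure D2:**
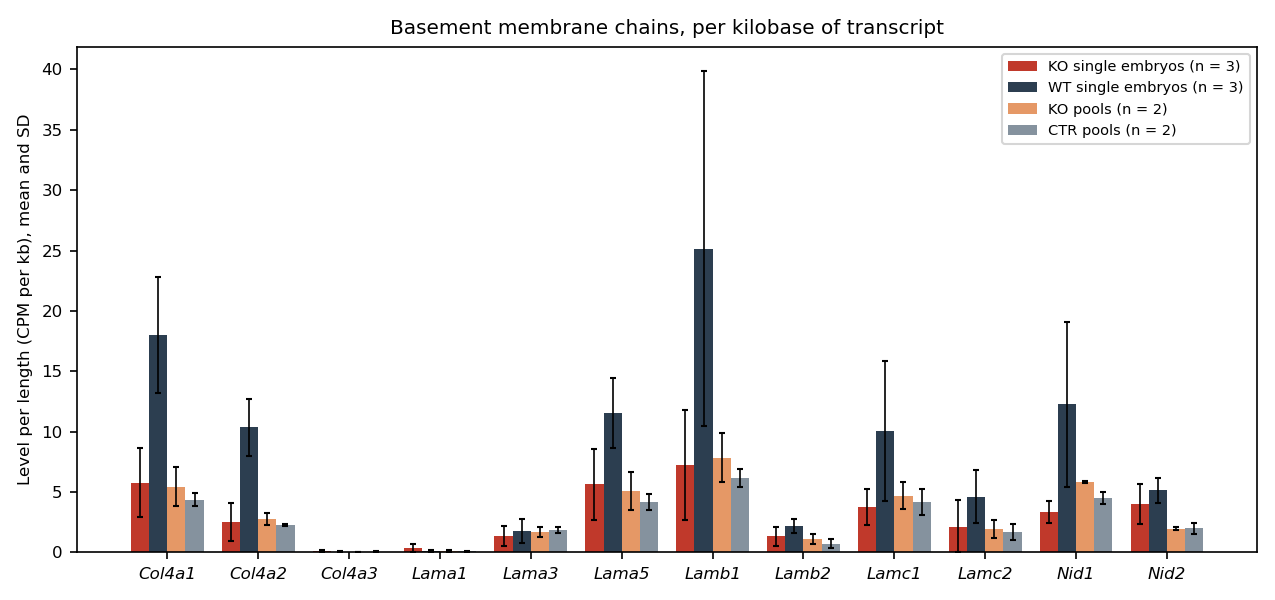
Level per length (CPM per kilobase of transcript, linear axis) of the basement membrane chains, as mean and SD over the libraries of each group. Lama1 lies near 0 in all 4 groups while Lama5, Lamb1 and Lamc1 are present in each.

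Over the 6 basement membrane genes together, the summed level was 93.8, 218 and 122 CPM in knockout single embryos 1, 3 and 4, against 665, 298 and 415 CPM in wild-type single embryos 1 to 3. It was 119 and 170 CPM in knockout pools and 107 and 131 CPM in control pools. The knockout embryos lay on both sides of the 4 pools, and the wild-type embryos stood above every other library. Set against Gata6 in the same library, the sum was 0.345, 0.530 and 0.611 times Gata6 in knockout single embryos, and 1.61, 0.667 and 1.09 times in wild-type single embryos. The groups did not overlap (two-sided exact permutation p = 0.1, the smallest possible). In pools the same ratio was 0.428 and 0.482 in the knockout and 0.479 and 0.448 in the control, with overlap (exact permutation p = 1).

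**Figure D3:**
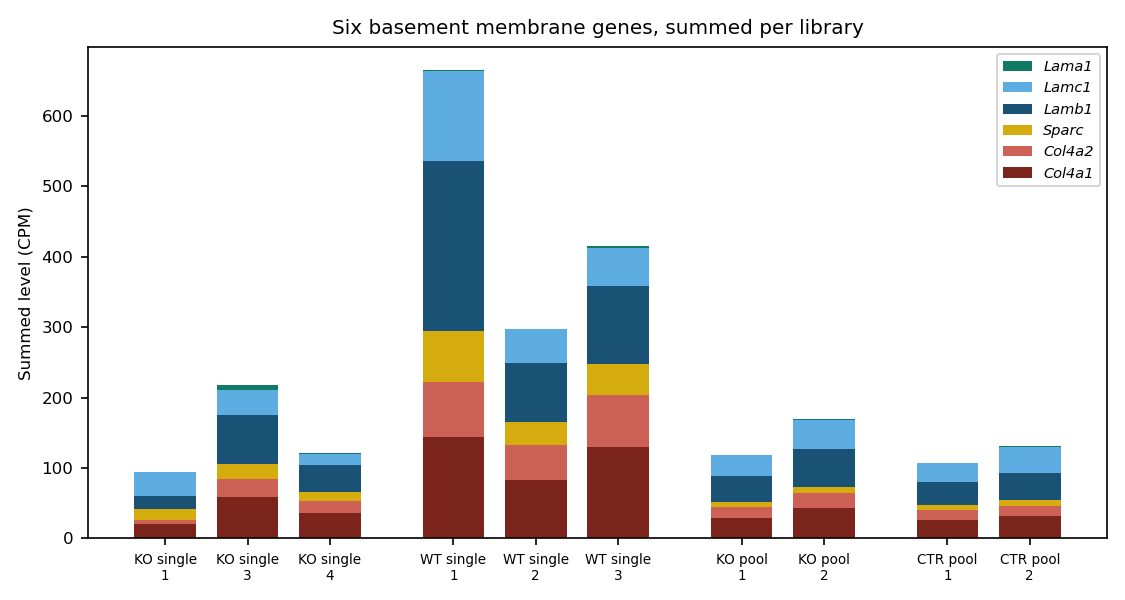
Summed level (CPM, linear axis from 0) of the 6 basement membrane genes in each of the 10 libraries, stacked by gene, knockout before wild type in single embryos and knockout before control in pools. The wild-type single embryos reach 298 to 665 CPM, and the knockout single embryos, at 93.8 to 218 CPM, stand in the range of the pools or near it.

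Knockout replicate 3 was the highest of the knockout single embryos for all 10 members, and also for Jarid2. Among the wild-type single embryos replicate 1 was the highest for 7 members, and the lowest knockout level fell to replicate 1 for 7 members, ties at 0 included. Knockout pool 2 was the higher knockout pool for 8 members and control pool 2 the higher control pool for 9. The same shares over all genes were not computed, so these counts may not be particular to the members. Outside the members, knockout replicate 3 was also the highest knockout embryo for P4hb, Lrp2 and Gata3, but not for Klf5, Cited1, Itgb1 or Nid1. Whether the remaining Jarid2 RNA of replicate 3 has a part in its higher levels was not tested.

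In single embryos 6 of the 10 members lay lower in every knockout embryo than in every wild-type embryo (Gata4, Col4a1, Col4a2, Sparc, Lamb1 and Lamc1) and none lay higher in all, against 15.3% and 12.6% of all genes tested. The median log2 change was -1.59 over the members and -0.04 over all genes. Col4a1, Col4a2 and Sparc stayed lower in the knockout in all 6 fits with a library left out, as the plot of changes with a library left out shows. For groups that do not overlap, leaving out a library could hardly turn the sign, so this adds no support. Among those fits the 3 genes passed only without knockout replicate 3 or wild-type replicate 2. With a trend on gene length and GC content taken out of every library, no member passed, at adjusted p = 0.0559 for Col4a1, 0.0555 for Col4a2 and 0.0585 for Sparc, with log2 changes of -1.25, -1.66 and -1.49.

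**Figure D4:**
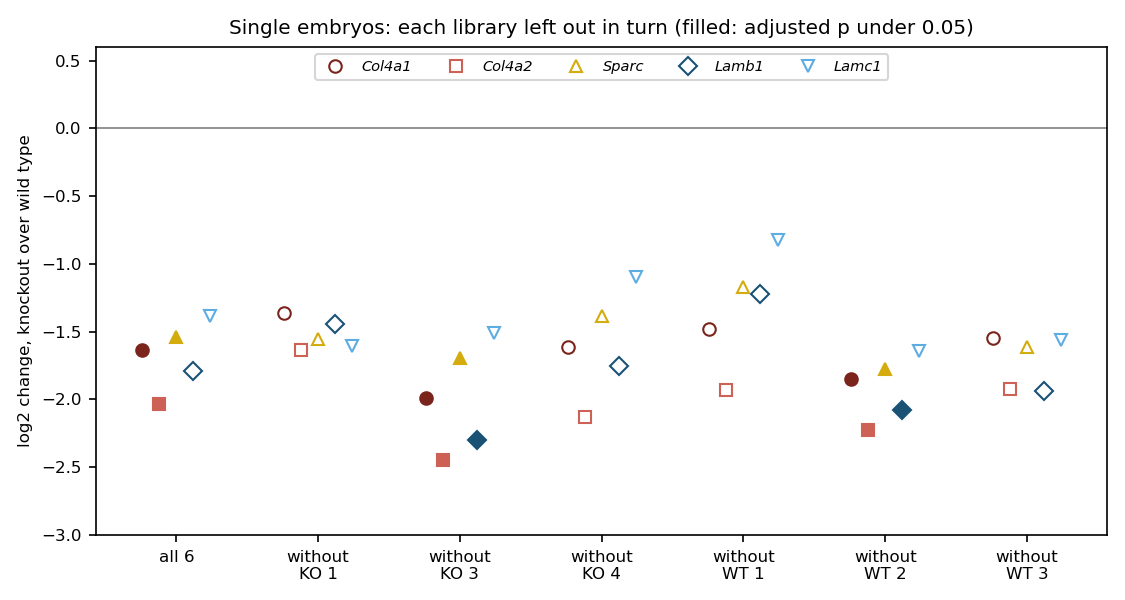
Log2 change (knockout over wild type) of Col4a1, Col4a2, Sparc, Lamb1 and Lamc1 in single embryos, fitted with all 6 libraries and with each left out in turn. Filled symbols have an adjusted p under 0.05. Col4a1, Col4a2 and Sparc lie below 0 whichever library is left out, a sign that groups without overlap largely fix in advance. They pass the threshold with all 6 libraries and, among the fits with a library left out, only without knockout replicate 3 or wild-type replicate 2.

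In pools 0 of the 10 members passed the test by edgeR, against 0% of all 16259 genes tested. At an unadjusted p under 0.05 the count was 1, Gata4, against 6.6% of all genes, and DESeq2 and limma-voom each called 0 members. Of the members, Gata4, Col4a2 and Sparc lay higher in both knockout pools than in both control pools and none lay lower in both, against 24.3% and 11.1% of all genes. The members' median log2 change was 0.19, with 0.01 over all genes.

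The difference between the knockout effects of single embryos and pools was tested in a fit of all 10 libraries. It passed for 0 of the 10 members by edgeR, against 0.0063% of 15878 genes. In simulated data this test recovered only 3% of 2-fold and 31% of 4-fold changes, so a missing call says little. The unadjusted share was larger. At an unadjusted p under 0.05 the difference reached 6 members, against 14.6% of all genes, and DESeq2 called 2, Col4a1 and Lamb1, among 544 genes in all, and limma-voom 0. The difference in log2 change, single embryos minus pools, was -1.83 for Col4a1 (SE 0.51, adjusted p = 0.235), -2.20 for Col4a2 (SE 0.64, adjusted p = 0.235) and -1.58 for Sparc (SE 0.50, adjusted p = 0.235). For the laminin chains it was -2.02 for Lamb1 (SE 0.68, adjusted p = 0.240) and -1.43 for Lamc1 (SE 0.61, adjusted p = 0.305). For Gata6 the difference was -0.63 (SE 0.33, adjusted p = 0.397). Single embryos and pools differ in embryo number, depth, stated sex and the label of the control (WT or CTR) together, so these cannot be told apart.

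**Figure D5:**
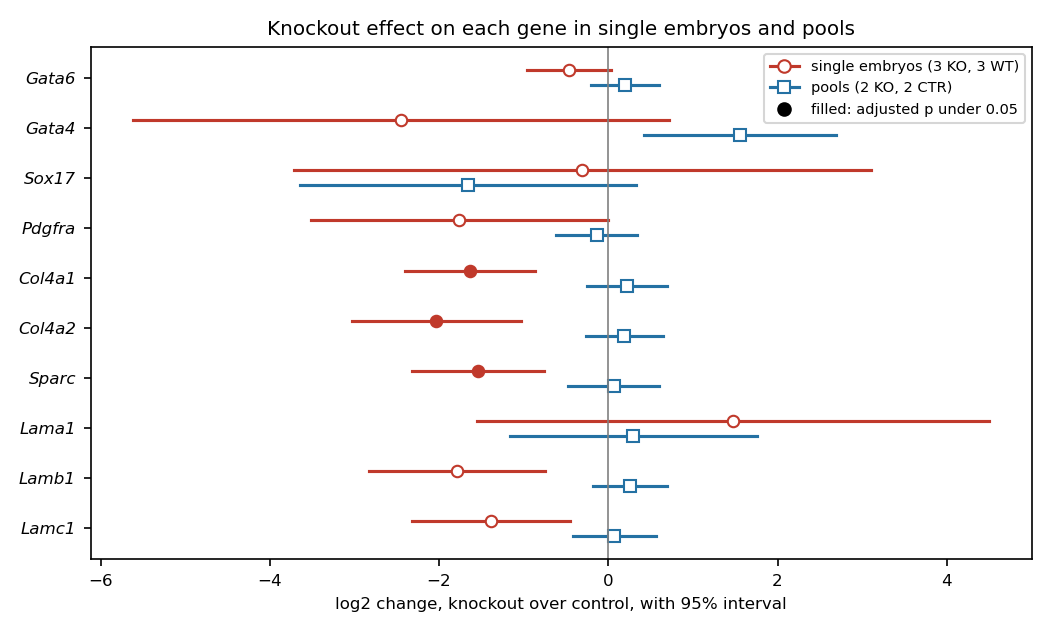
Log2 change (knockout over control) of each of the 10 genes, with 95% intervals, in single embryos (3 against 3 libraries) and in pools (2 against 2). In single embryos the intervals of Col4a1, Col4a2, Sparc, Lamb1, Lamc1 and, with an upper end of -0.001, Pdgfra lie below 0. In pools those of the same genes cross 0, and that of Gata4 lies above 0 (0.43 to 2.69). The intervals are not adjusted for the number of genes, and neither Pdgfra nor Gata4 passed the test.

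Members were also divided by the class of their protein. Col4a1, Col4a2, Sparc, Pdgfra, Lama1, Lamb1 and Lamc1 encode proteins with a hydrophobic segment, such as a signal peptide that sends a protein into the secretory pathway, while Gata6, Gata4 and Sox17 do not. Of the 7 with a segment 3 fell in single embryos (median log2 change -1.63), and of the 3 without it 0 fell (median -0.46). Over all genes with an annotated protein, 9.57% of 4188 genes with a segment fell, against 0.477% of 7752 without one. The median log2 change of these classes was -0.47 and 0.14. The division depends on the rule: with a stricter rule that asks for a more hydrophobic 19-residue window and leaves out the search near the start of the protein, Pdgfra alone of the members had a segment, and the 3 that fell were among the 9 without one, where 1.33% of 9655 genes fell. Whether the class has a part in the members' fall was not tested.

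Among the genes whose products modify, export or hold matrix proteins, those that passed the test in single embryos all fell. Of 19 tested genes for collagen modification and export 8 fell and 0 rose, with a median log2 change of -1.07, against 3.21% and 1.16% of all genes tested. The count was 2, 0, 1 and 0 without knockout replicate 1, knockout replicate 4, wild-type replicate 1 and wild-type replicate 3. P4hb, a subunit of the prolyl hydroxylase that stabilises the collagen helix, had 321, 391 and 366 CPM in knockout replicates 1, 3 and 4, against 1157, 931 and 848 CPM in wild-type replicates 1 to 3, and fell by 1.40 (SE 0.17, adjusted p = 0.0120). P4ha1, its catalytic partner, fell by 1.21 (SE 0.18, adjusted p = 0.0120), and Ppib, a proline isomerase of the endoplasmic reticulum, fell by 1.22 (SE 0.21, adjusted p = 0.0180). The others that fell were Lman1, Mia3, Plod1, Colgalt1 and Crtap. All 8 were among the 13 listed genes with a hydrophobic segment, a class of which 9.57% fell over all genes, and the 6 without one had a median of 0.19 and no call.

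Of 18 matrix receptor genes 5 fell and 0 rose, with a median log2 change of -1.12, where 3.21% of all genes and 9.57% of those with a segment fell, and without the same 4 libraries the count was 1, 0, 0 and 0. Itgb1, the beta chain of the main laminin and collagen receptors, had 104, 112 and 118 CPM in knockout replicates, against 339, 243 and 269 CPM in wild-type replicates, and fell by 1.31 (SE 0.20, adjusted p = 0.0135). Dag1, the laminin receptor dystroglycan, fell by 1.95 (SE 0.38, adjusted p = 0.0232), and Sdc4, a heparan sulphate proteoglycan, fell by 1.002 (SE 0.18, adjusted p = 0.0188). Itga6 and Itgb5 were the others. Among 17 other basement membrane genes only Nid1, a linker between the laminin and collagen networks, fell, at 14.9, 20.6 and 25.6 CPM in knockout replicates against 123, 51.3 and 50.03 CPM in wild-type replicates (log2 change -1.83, SE 0.38, adjusted p = 0.0287), and the median of that list was -1.06. All 17 have a segment, and 1 of 17 is no larger a share than the 9.57% that fell over that class. Nid1 was not called without any 1 of those 4 libraries.

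Of 28 genes of PDGF and FGF signalling 3 fell and 0 rose, against 3.21% and 1.16% of all genes, and the list's median was -0.08, but without any 1 of those 4 libraries the count was 0. These were the receptors Fgfr2 (-1.11, SE 0.23, adjusted p = 0.0267) and Fgfr1 (-1.93, SE 0.44, adjusted p = 0.0359) and Pdgfa, the ligand of Pdgfra (-1.05, SE 0.24, adjusted p = 0.0371). All 3 were among the 12 listed genes with a segment, a class of which 9.57% fell. The 16 genes of that list without a hydrophobic segment had no call and a median of 0.13. Of 15 other primitive endoderm and yolk sac genes 1 fell and 1 rose, against 3.21% and 1.16% of all genes, with a median of -0.61, and 1 was called without knockout replicate 1 and 0 without the other 3 of those libraries. Lrp2, an endocytic receptor also called megalin, held 699, 874 and 548 CPM in knockout replicates, against 1823, 1631 and 1686 CPM in wild-type replicates, and fell by 1.24 (SE 0.18, adjusted p = 0.0120). Cited1, a transcriptional coregulator, rose by 1.44 (SE 0.33, adjusted p = 0.0373).

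The lists of epiblast genes and of other GATA and SOX factors gave no call by edgeR in single embryos. Of 16 epiblast and pluripotency genes 0 passed the edgeR test, 2 reached an unadjusted p under 0.05 (22.6% of all genes did), DESeq2 called 2 and limma-voom 0, and the median was -0.38. Tfcp2l1 had a log2 change of -0.23 (SE 0.19, adjusted p = 0.519) and Klf5 of 0.62 (SE 0.20, adjusted p = 0.0939). Of 9 other GATA and SOX factors 0 passed, 3 reached an unadjusted p under 0.05, DESeq2 called 2 and limma-voom 0, and the median was -0.30, with Gata3 at -0.07 (SE 0.24, adjusted p = 0.898) and Sox15 at 1.48 (SE 0.45, adjusted p = 0.0829). In pools none of the 7 lists had a call by edgeR or limma-voom, DESeq2 called 1 basement membrane gene and 1 epiblast gene, and the lists' medians ran from -0.06 to 0.33. The pools held 709 and 856 CPM of Lrp2 in the knockout and 646 and 852 CPM in the control, and P4hb stood at 281 and 303 CPM in knockout pools and 318 and 365 CPM in control pools.

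The closest profiles over the 10 libraries were sought among 8009 genes of at least 10 CPM on average, by the root mean square difference of centred log2(CPM + 1) values. For Col4a1 they included Epha4 (0.18), an ephrin receptor, Slc23a2 (0.18), a vitamin C transporter, Scd1 (0.18), a fatty acid desaturase, and Fzd5 (0.19), a Wnt receptor, against a median of 0.91 over all genes. For Gata6 they were Kansl1 (0.13), Zc3h18 (0.13), Ago3 (0.13), Cluh (0.14) and Smarca4 (0.14), against a median of 0.49. Within the members, Col4a1 lay closest to Col4a2 (0.27) and Lamb1 (0.28), and Col4a2 lay 0.32 from Lamb1. Col4a1 and Gata6 lay 0.67 apart.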

How the data were processed

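The deposited table held whole-number counts per gene for 10 libraries, with no normalization by the authors. Libraries were made with SMART-Seq v4 and Nextera XT and read single-end over 75 bases, per the labels' protocols. The submitters' processing notes name the assembly mm10 and the tools RSEM 1.3.1, STAR 2.7.6a and fastp 0.21.0, with their roles, annotation and strand handling not given in the sources used here. Since reads carried no molecular identifiers, floors cover counting error only.

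The main test was edgeR 4.0.16 in R 4.3.3 (filterByExpr, TMM with factors 0.902 to 1.11, quasi-likelihood F test, Benjamini-Hochberg over all genes at 5%), for single embryos and pools apart. The difference of the knockout effects was fitted over all 10 libraries. SE is the change over the root of F. CPM used library totals, and levels per kilobase the longest GENCODE M21 transcript; 75.9% of gene names matched that annotation. Hydrophobic segments (a 19-residue window with mean Kyte-Doolittle hydropathy of at least 1.6, or an 11-residue one of at least 2.0 within the first 40 residues) were found in translated GENCODE coding sequences, in place of the RefSeq proteins first intended. Scripts were tested on simulated data with known 2-fold and 4-fold changes. The single-embryo test recovered 20% and 75% of them, the pool test 51% and 91%, and the set-difference test 3% and 31%. The changes were planted in a small share of genes, all above a floor on mean counts. The rates thus do not cover members with few counts and need not hold where many genes change. Libraries of the same group all differed by more than sampling noise (chi-square 49.4 to 88.5 per gene).

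The members and lists were chosen with earlier results of these data known, as was the protein class. Besides all 10 members and Jarid2, the genes named from each list were up to 3 past 5% with the smallest p, or else the 2 with the highest mean CPM, and the 5 closest profiles to Col4a1 and to Gata6, of which 1 is not reported here. Genes given by name only to complete a count of 8 or 5, with Lama5, were chosen after their values were seen. Alternatives were 3 other scalings, DESeq2 1.42.0, limma-voom (limma 3.58.1), other filters, a robust fit, 1 fit of all libraries, a length and GC trend removed, the replicate number as a block, and each library left out. Knockout single replicate 2 was not analysed here.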

Additional observations from a re-analysis of the deposited data

Results flagged for a closer look

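Gata4, Col4a2 and Sparc differed between the sets, with every knockout single embryo below every wild-type single embryo and both knockout pools above both control pools. The difference of the knockout effects, single embryos minus pools, was -3.97 on the log2 scale for Gata4 (adjusted p = 0.338 by edgeR's quasi-likelihood test of the interaction), -2.20 for Col4a2 (adjusted p = 0.235) and -1.58 for Sparc (adjusted p = 0.235), and none passed the test. In pools the separation was small for Col4a2 (log2 change 0.19) and Sparc (0.06), and 24.3% of all genes lay higher in both knockout pools. For Gata4, single embryos held 0 to 14 counts in the knockout and 16 to 34 counts in the wild type.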

How the results depend on the processing

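In single embryos 3 members passed the test. The count was 5 by DESeq2, 6 with no filter on low counts, 5 with all 10 libraries in 1 fit, 4 by limma-voom, 0 with the length and GC trend removed, and 0 to 5 with a library left out. It was 0 without knockout replicate 1, knockout replicate 4, wild-type replicate 1 or wild-type replicate 3, and all genes called then came to 66, 1, 41 and 1, against 605. Over all single embryos left out in turn that count ran from 1 to 1316, the highest without knockout replicate 3. It was 1957 by DESeq2, 1715 with no filter, 1667 with all libraries in 1 fit, 235 with the trend removed and 187 with the replicate block. In pools no alternative called a member; all genes called were 0, with 71 by DESeq2, 1 by limma-voom, 170 with no filter, 39 with the block and 25 to 379 with a pool left out. For the set difference 0 members passed, with 2 by DESeq2 and 5 with no filter, and 1 gene of all passed, with 544 and 548 under those settings. The cause of these shifts was not tested.

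The replicate numbers are not stated to pair embryos. Same-numbered single embryos deviated with correlations of -0.01 and -0.08, and those of unlike number with -0.16 to 0.16. In pools the correlation was 0.32 for the same number and -0.32 for unlike numbers. With 2 pools per group these are 1 value with opposite signs, which does not settle whether the pools pair. With the replicate block 4 members passed in single embryos (Pdgfra, Col4a1, Col4a2 and Lamb1), 0 in pools and 0 for the set difference. Among single embryos only the replicate numbers 1 and 3 occur in both genotypes. Knockout replicate 4 and wild-type replicate 2 have no partner of the same number and add nothing to the change fitted with the block. The 4 calls thus rest on the same-numbered embryos alone and not on all single embryos.

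Changes of sign concerned members that had not passed. In single embryos the log2 change of Lama1 was -0.016 by limma-voom and -0.47 with the block, and that of Sox17 ran from -8.95 to 0.28 with a library left out; at the low end every knockout embryo had 0 counts, where a fitted change is no bound. In pools, with the trend removed, it was -0.041 for Col4a2, -0.012 for Sparc and -0.085 for Lamc1. With a pool left out it ran from -0.042 to 0.44 for Col4a1, -0.53 to 0.87 for Lama1, -0.15 to 0.32 for Lamc1 and -2.93 to 0.20 for Sox17. For the set difference, Sox17 gave -2.49 by limma-voom, -0.37 with the block and -8.01 to 2.64 with a library left out; Lama1 gave -0.26 by limma-voom and -0.44 with the block; Jarid2 gave 0.032 with the trend removed and -0.98 to 0.077 with a library left out. Between 0 and 9 genes for collagen modification and export were called in single embryos with a library left out, and 0 to 5 matrix receptor genes. Depth limits Gata4, Sox17 and Lama1 most, which held at most 34, 175 and 128 counts in any single embryo.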
